A study of Mus musculus with 2 samples.

Results

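The regions described here are the accessible DNA around 10 genes of the TGF-beta pathway: the ligands Tgfb1, Tgfb2 and Tgfb3, the receptors Tgfbr1 and Tgfbr2, the signal transducers Smad2, Smad3 and Smad4, and the inhibitors Smad7 and Skil. Regions were given to these genes by position. A counted region belonged to one of these genes when it held at least 20 counts summed over both libraries and the nearest protein-coding gene span in RefSeq (GRCm38) was that of the gene, at most 50 kb away (0 inside the gene, the shortest span on ties). This gave 111 of 94857 regions, at all 10 genes, with 3 regions at Skil and 19 at Smad3 as the extremes.

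The assay was ATAC-seq, where a transposase cuts and tags open DNA, applied to interfollicular basal cells from the epidermis of the back, sorted for ITGA6, an integrin of cells on the basement membrane, and against CD34, a hair follicle stem cell marker. The stretched library came from 1 CD1 mouse whose skin was expanded by force, and the control library from 1 untreated CD1 mouse, with 10000 sorted cells each. CD1 is an outbred stock, so the 2 mice may also differ in genotype. The labels name no transgene, and they give neither age nor sex. The title of the stretched sample carries the code D2, which the labels do not explain. With 1 mouse per group there is no replicate check and no p-value: each interval below covers counting error only, and differences between mice, sorts or libraries cannot be told apart from those of stretching.

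TGF-beta ligands are secreted in a latent form and bind, once freed, a complex of type II and type I receptor kinases. The type I receptor phosphorylates SMAD2 and SMAD3, which enter the nucleus with SMAD4 and bind DNA. SMAD7 and SKIL (SnoN) restrain the pathway and are themselves known target genes of it. In epidermis the pathway is known for holding back keratinocyte division.

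The 109257 counted regions hold 8820178 counts in the control library and 11803785 in the stretched one. Without 10 very large regions these totals are 5776423 and 6027023. Each fold is stretched over control after TMM scaling, with an exact Clopper-Pearson 95% interval, and pairs of counts give the control first. Regions at 6 basal keratinocyte marker genes summed to 519 CPM (counts scaled to a common library size) in the control library. The stretched library had 564 CPM, a fold of 1.09 (1.05 to 1.13). Of these genes Krt5 (0.979), Itgb4 (0.974) and Col17a1 (0.891, 0.809 to 0.981) were under 1. Krt14 (1.20), Itga6 (1.17) and Trp63 (1.22) were over 1. The lists for other skin cells summed to 41.4 to 192 CPM in the control and 33.1 to 173 in the stretched library. The sums cover 88 regions at the basal genes and 14 to 25 in each of the other lists, so they do not rank openness per region. Those lists stood at folds of 0.801 for immune cells, 0.815 for fibroblasts (Lum, a fibroblast marker, had no region), 0.870 for melanocytes, 0.898 for hair follicle stem cells and 0.906 for endothelial cells. Single genes in them went the other way: Cd34, the gene of the marker sorted against, stood at 1.39 (1.23 to 1.57), Dcn of fibroblasts at 1.69 and Cdh5 of endothelial cells at 1.43, all 3 picked after their values were seen. Scaled by total counts instead, every fold in this paragraph is lower by 0.50 on the log2 scale, which puts the basal sum and Cd34 under 1. In sorted bulk cells, fewer cells with an open site and less open DNA per cell cannot be told apart, and the part of other cell types in the folds below was not tested.

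The promoters of 2 ligands, both receptors and Smad3 are shown, and these accessible sites differ in their motifs and base composition. The 250 bases before the start site are given 5′ to 3′ on the gene's strand from RefSeq (GRCm38.p6) for the 5 members whose window lies in a counted region and in the table, and capitals mark every match to the motifs searched on either strand: CAGAC (the SMAD box), GTCTAGAC (the SMAD palindrome), TGANTCA (AP-1), TGACGTCA (the cyclic AMP response element), GGGCGG (the SP1 box), CCAAT (the CCAAT box), TATAAA (the TATA box) and GGAATG (TEAD).
Tgfb1, chr7:25686752-25687001, + strand: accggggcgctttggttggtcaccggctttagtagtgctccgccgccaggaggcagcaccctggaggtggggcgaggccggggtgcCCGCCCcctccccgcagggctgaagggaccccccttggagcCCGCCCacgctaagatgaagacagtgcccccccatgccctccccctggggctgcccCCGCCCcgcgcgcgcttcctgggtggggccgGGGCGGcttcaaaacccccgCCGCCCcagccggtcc
Tgfb2, chr1:186705990-186706239, − strand: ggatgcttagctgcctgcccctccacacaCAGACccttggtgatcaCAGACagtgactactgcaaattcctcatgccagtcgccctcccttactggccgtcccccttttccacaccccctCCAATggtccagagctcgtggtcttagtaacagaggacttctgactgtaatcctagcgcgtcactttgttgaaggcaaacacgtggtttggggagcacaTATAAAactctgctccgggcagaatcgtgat
Tgfbr1, chr4:47352972-47353221, + strand: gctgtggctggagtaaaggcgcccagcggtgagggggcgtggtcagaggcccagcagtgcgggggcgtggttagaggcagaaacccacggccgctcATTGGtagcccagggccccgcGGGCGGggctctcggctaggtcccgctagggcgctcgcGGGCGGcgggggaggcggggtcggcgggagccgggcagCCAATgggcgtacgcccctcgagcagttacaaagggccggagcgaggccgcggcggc
Tgfbr2, chr9:116175364-116175613, − strand: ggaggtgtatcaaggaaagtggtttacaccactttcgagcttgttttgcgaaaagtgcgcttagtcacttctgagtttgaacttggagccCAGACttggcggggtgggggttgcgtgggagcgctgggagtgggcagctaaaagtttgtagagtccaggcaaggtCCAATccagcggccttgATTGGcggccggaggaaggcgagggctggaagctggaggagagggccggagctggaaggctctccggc
Smad3, chr9:63757995-63758244, − strand: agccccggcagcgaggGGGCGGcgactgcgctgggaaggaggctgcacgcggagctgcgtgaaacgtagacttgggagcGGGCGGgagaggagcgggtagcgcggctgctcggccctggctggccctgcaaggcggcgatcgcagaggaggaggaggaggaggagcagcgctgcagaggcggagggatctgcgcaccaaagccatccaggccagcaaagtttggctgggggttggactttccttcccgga

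The Tgfb2 window holds 2 copies of CAGAC, 1 CCAAT and a TATAAA from base -31 to -26, counted back from the start, and its GC content is 53.6%. The Tgfbr2 window holds 1 CAGAC and 2 CCAAT at 58.4% GC. By contrast the windows of Tgfb1, Tgfbr1 and Smad3 hold 5, 2 and 2 copies of GGGCGG and no CAGAC, at 75.2%, 74.8% and 69.2% GC, and Tgfbr1 adds 2 CCAAT. The median of the 32851 RefSeq windows of this length that were searched is 52.4% GC, and 42.2% of them hold CAGAC, 32.7% GGGCGG, 33.8% CCAAT and 12.4% TATAAA. None of the 5 windows holds GTCTAGAC (0.167% of those windows), TGANTCA (6.75%), TGACGTCA (1.55%) or GGAATG (12.6%). These matches describe letters only.

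Few regions around the 10 genes differed by 2-fold between the libraries. A region was called higher or lower when its fold was at least 2 (or at most 0.5) and its interval excluded 1. By this rule 7 of the 111 regions were higher (6.31%, against 7.22% of all regions) and 3 were lower (2.70%, against 8.71%). The median log2 fold was -0.0029, the same value as over all regions. Of the 10 called regions 2 held at least 100 counts (background 6.16% higher and 2.87% lower at this depth), an end of Skil (higher) and an internal region of Smad3 (lower), and the other 8 held 23 to 59. Among the 45 regions with at least 100 counts, 12 had an interval above 1 (32.3% of all such regions did) and 8 below (15.7%), and those 8 are all at Smad3. Peaks were listed in both libraries at 65 regions (58.6%, against 60.2% of all regions), in the control only at 9 (8.11%, against 9.33%), in the stretched library only at 16 (14.4%, against 14.9%) and in neither at 21 (18.9%, against 15.6%). At the limits of the rule, 10 further regions had 8 to 19 counts and 12 members had 20 to 24, while 2 regions lay 50 to 60 kb away and 6 members 40 to 50 kb.

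Summed over its regions, Smad3 was the 1 gene with an interval below 1 (18.6% of all gene sums were) and 7 genes had one above 1 (36.1%): Skil, Tgfbr1, Smad2, Smad4, Tgfbr2, Smad7 and Tgfb2, in that order of fold. None of the 10 sums reached 2-fold (background 4.71% higher and 2.6% lower). Scaled by total counts, which moves the median of all regions by -0.50 on the log2 scale, only the interval of Skil was above 1 and those of 6 genes were below. Scaled outside the large regions (-0.14) 4 genes were above. With the count trend removed 4 were above, and centred on regions of like count and gene density 2 were, Smad4 and Skil. Smad3 was below 1 in all 13 alternatives (0.527 to 0.765) and Skil above 1 in all 13 (1.34 to 2.33).

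**Figure D1:**
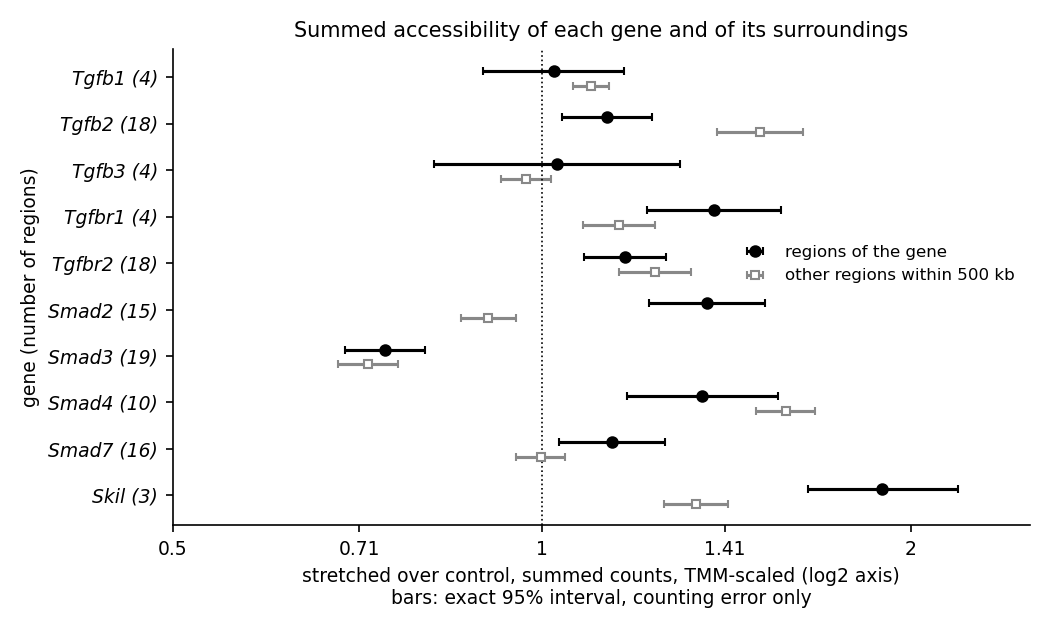
Fold (stretched over control, log2 axis) of the summed regions of each of the 10 genes (filled circles) and of the other regions within 500 kb (open squares), with exact 95% intervals for counting error. Among the genes Skil is highest at 1.90 and Smad3 lowest at 0.745; total-count scaling puts every gene but Skil under 1.

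Tgfb1 encodes the ligand TGF-beta 1, and the interval of its locus held 1. It has 4 regions (the gene at chr7:25687002-25705077) with 465 counts from the control and 450 from the stretched mouse, a fold of 1.02 (0.896 to 1.17). The promoter region, which holds the window of SP1 boxes, had 110 and 93 counts, a fold of 0.893 (0.670 to 1.19). The region with the most counts lay 2506 bp past the gene at 182 and 180. No Tgfb1 region was called.

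Tgfb2, the gene of TGF-beta 2, has 18 regions (chr1:186622787-186709697) with 1061 and 1135 counts, a fold of 1.13 (1.04 to 1.23). Its promoter region, holding the 2 SMAD boxes and the TATA box shown above, was the one with the most counts, 201 and 237 (8.44 and 10.5 CPM per kb), a fold of 1.25 (1.03 to 1.51). A region inside the gene at chr1:186637891-186638232 was called lower on 18 and 6 counts, a fold of 0.352 (0.114 to 0.926), a call lost with the count trend removed at 0.436 (0.142 to 1.15). Another, 3240 bp outside the gene at chr1:186712937-186714068, was called higher on 20 and 39 counts, a fold of 2.06 (1.17 to 3.73), a call lost at 1.46 scaled by total counts and 1.87 scaled outside the large regions. The locus thus holds calls in both directions at low counts. Picked after its values were seen, the region 35110 bp outside the gene had 115 and 195 counts, a fold of 1.79 (1.42 to 2.28). It overlaps the promoter window of Gm35546. The other regions within 500 kb of Tgfb2 stood at 1.51 (1.39 to 1.63).

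Tgfb3, the gene of TGF-beta 3, had the fewest counts of the 10: 4 regions (chr12:86056743-86079041) with 154 and 150 counts, a fold of 1.03 (0.816 to 1.30). The region at its end, 69 and 72 counts, stood at 1.10. One internal region, chr12:86074892-86075351, had 4 and 19 counts, a fold of 5.02 (1.67 to 20.3). That is the largest fold among the 111 regions, it rests on 23 counts, and neither library lists a peak there.

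Both receptor genes had promoter intervals above 1, though not under every alternative. Centred on regions of like count and gene density, both held 1, Tgfbr1 at 1.06 (0.903 to 1.24) and Tgfbr2 at 1.001 (0.831 to 1.21). The Tgfbr2 promoter interval also held 1 with the count trend removed, at 1.03 (0.852 to 1.24), and by total counts, at 0.946 (0.785 to 1.14). Tgfbr1, the type I receptor kinase that phosphorylates SMAD2 and SMAD3, has 4 regions (chr4:47353222-47414926) with 442 and 578 counts, a fold of 1.38 (1.22 to 1.57). The promoter region had 257 and 405 counts (11.1 and 18.5 CPM per kb), a fold of 1.67 (1.42 to 1.95), and the other 3 regions had 185 and 173, a fold of 0.988 (0.798 to 1.22). None reached 2-fold. A second RefSeq window of Tgfbr1, further into the gene, lies in no counted region.

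Tgfbr2, the type II receptor that binds the ligand first, has 18 regions (chr9:116087695-116175363) with 1267 and 1402 counts, a fold of 1.17 (1.08 to 1.26). Its promoter region, which also overlaps the promoter window of Gm40582, had 207 and 262 counts, a fold of 1.34 (1.11 to 1.61). The region with the most counts, 21064 bp inside from the promoter end of the gene, had 266 and 268 counts, a fold of 1.06. The called region, chr9:116159307-116160142, had 15 and 30 counts, a fold of 2.11 (1.10 to 4.23), with no listed peak. This call is lost at 1.49 scaled by total counts and 1.92 (0.9995 to 3.83) scaled outside the large regions. Picked after its values were seen, a distal region 47852 bp away had 108 and 201 counts, a fold of 1.97 (1.55 to 2.51), just short of the limit. The other regions within 500 kb of Tgfbr2 stood at 1.24 (1.16 to 1.32).

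**Figure D2:**
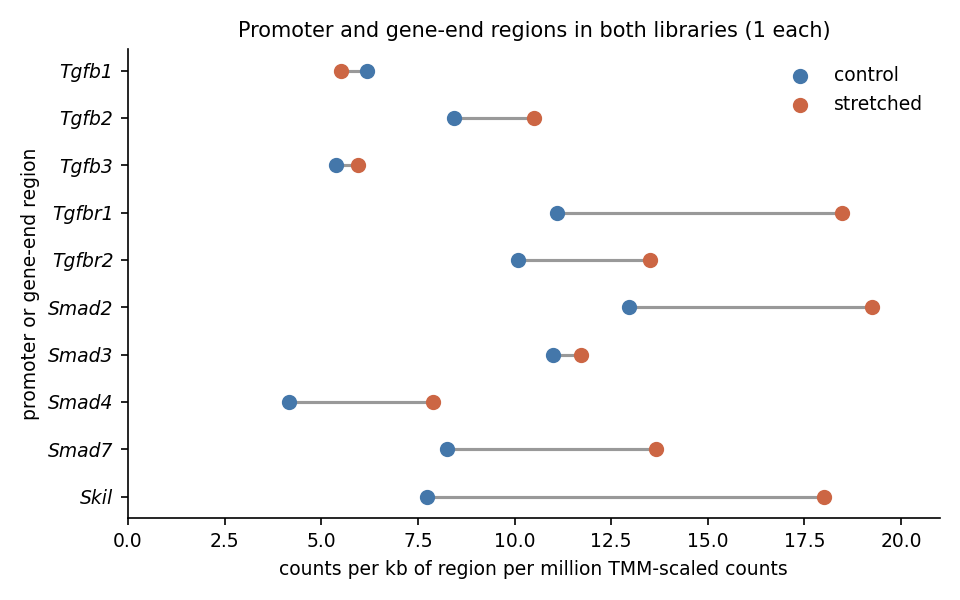
Accessibility (CPM per kb of region, TMM-scaled) in the control and stretched libraries at the promoter or gene-end region of each of the 10 genes. Tgfbr1 is at 11.1 and 18.5, Smad4 at 4.17 and 7.88 and Smad3 at 11.01 and 11.7; under total-count scaling 2 of the 10 keep an interval above 1.

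Of the 10 promoter or gene-end regions, 9 touch a gene end and that of Tgfb2 lies inside the annotated span. Intervals were above 1 at 7 of the 10, 6 of them touching a gene end, and below 1 at 0. Over all regions touching a gene end 44.1% were above and 9.18% below, and the median fold was 1.23. One of the 10, at Skil, was called higher and 0 lower, against 9.92% and 2.46% of all regions touching a gene end. The count of 7 is 6 scaled outside the large regions, 4 with the count trend removed, 3 centred on like regions and 2 scaled by total counts, where the intervals of 2 others are below 1.

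Smad2, the gene of a receptor-activated SMAD, has 15 regions (chromosome 18, 76241090 to 76311748) with 590 and 761 counts, a fold of 1.36 (1.22 to 1.52). Its gene-end region had 224 and 315 counts, a fold of 1.49 (1.25 to 1.77). A region 37394 bp outside the gene, at 76349142 to 76349998, was called higher on 10 and 27 counts, a fold of 2.85 (1.34 to 6.61), with a peak in the stretched library only. Scaled by total counts it is 2.02 (0.946 to 4.67) and not called. The other regions within 500 kb of Smad2 stood at 0.904 (0.859 to 0.952), on the other side of 1.

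Smad4, the gene of the SMAD shared with the BMP arm, has 10 regions (chromosome 18, 73634790 to 73703791) with 351 and 449 counts, a fold of 1.35 (1.17 to 1.56). The gene-end region had 71 and 127 counts, a fold of 1.89 (1.403 to 2.56). The region with the most counts, 11099 bp away, had 97 and 118. Inside the gene, 73697075 to 73697381 was called lower on 19 and 4 counts, a fold of 0.222 (0.0550 to 0.669), without a listed peak. Outside it, 73711899 to 73712306 was called higher on 10 and 22, a fold of 2.32 (1.06 to 5.50). This second call is lost at 1.64 scaled by total counts and 2.11 (0.958 to 4.99) scaled outside the large regions. The other regions within 500 kb stood at 1.58.

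Smad3, the gene of the other receptor-activated SMAD, which also binds DNA directly, was the only member whose summed interval lay below 1 in every alternative. Its 19 regions (chromosome 9, 63646766 to 63757994) had 1677 and 1183 counts, a fold of 0.745 (0.691 to 0.804). Of these regions 16 had a fold under 1 (50.1% of all regions did) and 9 an interval below it (15.6%), and under the other scalings 16 to 19 had a fold under 1. The promoter region had 139 and 140 counts, a fold of 1.06 (0.836 to 1.36), and the other 18 regions had 1538 and 1043, a fold of 0.717 (0.662 to 0.776). The region with the most counts, 11328 bp inside the gene from its start-site end, had 305 and 221, a fold of 0.766 (0.641 to 0.913). The called region, chr9:63730624-63731575, had 103 and 40 counts, a fold of 0.410 (0.277 to 0.597), and its summit pileup was 60 and 27 fragments. It was called lower under all 6 scalings and centrings, and it overlaps the promoter window of the predicted gene Gm51710.

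The regions around Smad3 leaned the same way. The 49 other regions within 500 kb had a fold of 0.722 (0.682 to 0.764), with 17 called lower and 0 higher. Within 300 kb of the Smad3 start, Smad6, the neighbouring gene of an inhibitory SMAD of the BMP arm, had all 11 regions under 1 and a fold of 0.751 (0.671 to 0.840). Iqch, on the other side, had 8 of 9 regions under 1 and a fold of 0.489 (0.414 to 0.577), and Aagab stood at 0.891. Copy number of this stretch was not measured, and whether it differs between the 2 outbred mice was not tested.

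**Figure D3:**
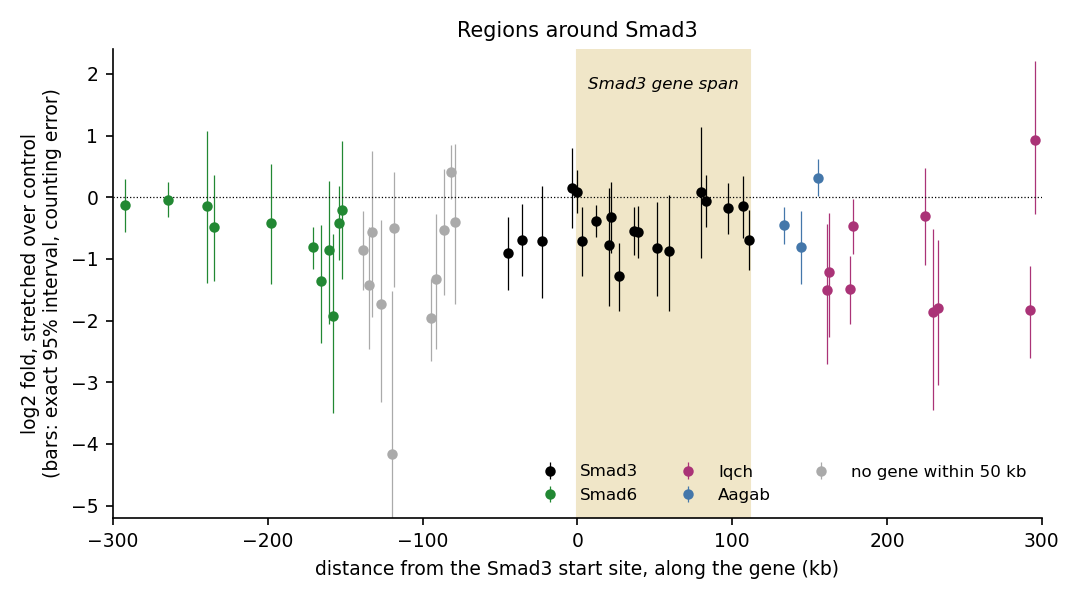
Log2 fold of each counted region by distance (kb) from the Smad3 start along the gene, with 95% intervals, for Smad3, its neighbours and regions of no gene. Of the 19 Smad3 regions 16 lie under 0, as do most neighbours; the interval of 1 region with 19 and 1 counts runs off the axis.

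The 2 inhibitors were above 1, Smad7 not under total-count scaling, where it is at 0.807. The summed interval of Smad7 held 1 scaled outside the large regions, at 1.04 (0.938 to 1.14). It also held 1 centred on like regions, at 1.07 (0.973 to 1.19). Smad7 blocks the type I receptor. Its 16 regions (chromosome 18, 75367365 to 75395935) had 773 and 835 counts, a fold of 1.14 (1.03 to 1.26). The gene-end region had 120 and 188 counts, a fold of 1.66 (1.31 to 2.099), and without it the gene stood at 1.05. A region inside the gene near its other end, 75394812 to 75395249, was called higher on 13 and 37 counts, a fold of 3.01 (1.56 to 6.17), with a peak in the stretched library only. Picked after its values were seen, a region 3.5 kb outside the gene stood at 1.93 (1.37 to 2.76).

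Skil encodes SnoN, a nuclear corepressor that binds SMADs. Its 3 regions (chromosome 3, 31095058 to 31122923) had 311 and 558 counts, a fold of 1.90 (1.65 to 2.19), the largest of the 10. The region at its end, chr3:31093754-31095863, had 171 counts from the control and 377 from the stretched mouse, a fold of 2.33 (1.94 to 2.81). The authors' summit pileup there was 52 and 193 fragments. It was the only region of at least 100 counts called higher, and it loses the call at 1.65 scaled by total counts, 1.754 with the count trend removed and 1.69 centred on like regions. A second region 11108 bp past the gene had 127 and 169 counts, a fold of 1.406 (1.11 to 1.78). The other regions within 500 kb of Skil stood at 1.34 (1.26 to 1.42).

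**Figure D4:**
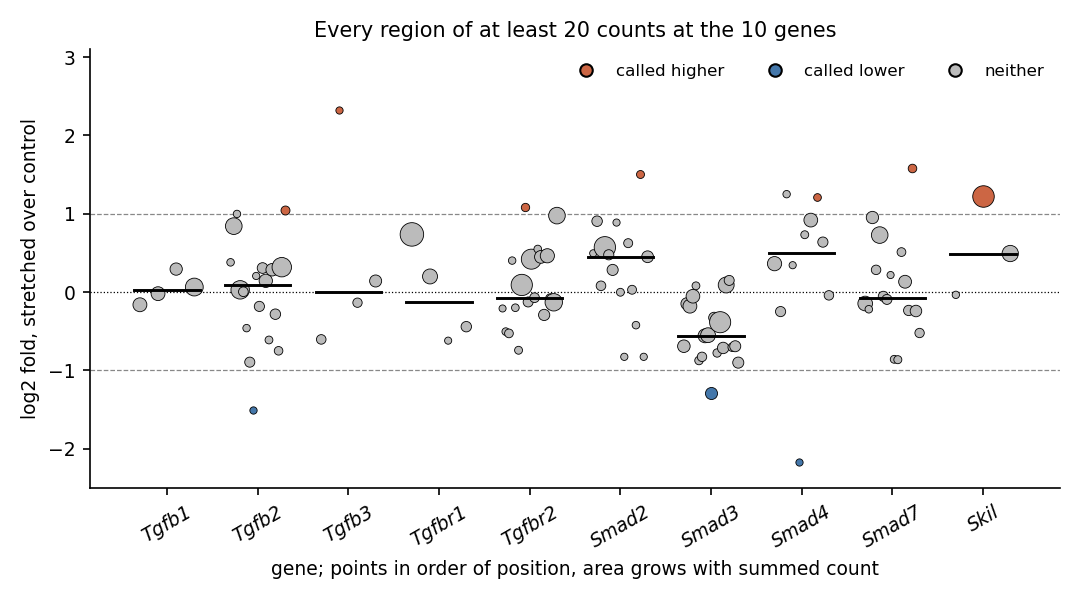
Log2 fold (vertical axis) of each of the 111 regions, by gene and in order of position, the area of a point growing with its summed count. Called regions are mostly at low counts, the exceptions being the end of Skil (higher) and an internal region of Smad3 (lower), and total-count scaling lowers every point by 0.50.

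Beyond the 10 genes, 45 others of the pathway were counted in the same way, from a list covering latency and activation, co-receptors, the activin arm, adaptors and inhibitors, the kinase branch and known targets. Of their 405 regions 39 were higher (9.63%) and 35 lower (8.64%), with a median log2 fold of -0.01. The latency and activation list, most of whose genes keep the ligand inactive or free it, had calls in each direction. Of its 101 regions 16 were higher and 17 lower (15.8% and 16.8%, against 7.22% and 8.71% of all regions). Of these calls 9 of the 16 higher were at Ltbp1 and 6 of the 17 lower at Ltbp2. Ltbp1, a latent TGF-beta binding protein, had 964 and 1246 counts over 24 regions, 9 of them higher and 2 lower, a fold of 1.37 (1.25 to 1.49). Its relative Ltbp2, which does not bind latent TGF-beta, had 476 and 217 counts over 10 regions, 6 of them lower and 0 higher, a fold of 0.482 (0.408 to 0.567), the 1 gene of the list past 2-fold. Itgav, the integrin subunit that frees the ligand, was at 1.42 with 1 region higher and 3 lower, and its partner Itgb6 at 1.06 with 2 higher. Ltbp4 (1.10) and Thbs1 (1.22) also held calls in both directions.

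Among adaptors and inhibitors, 11 of 150 regions were higher and 9 lower (7.33% and 6.0%, against 7.22% and 8.71% of all regions). Pmepa1, an inhibitor that is itself induced by TGF-beta, had 1458 and 2260 counts over 16 regions, a fold of 1.64 (1.53 to 1.751), with 2 higher. Ski, the close relative of Skil, was at 0.842 with 1 region higher and 4 lower, and Skil at 1.90. Smurf1, a ubiquitin ligase that works with SMAD7, was at 1.17 and Nedd4l at 1.002. The co-receptor Tgfbr3 was at 1.12, and the kinase gene Map3k7 (TAK1) at 1.44 with 2 of 6 regions higher.

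Of 74 regions at target genes, 7 were higher and 5 lower (9.46% and 6.76%). Cdkn2b, the cell cycle inhibitor p15 that TGF-beta is known to induce, was at 1.87 (1.60 to 2.18) with 2 of 5 regions higher. Bhlhe40 had 751 and 1238 counts over 10 regions, a fold of 1.74 (1.59 to 1.91), with 3 higher. Tgfbi was at 0.920 and Snai1 at 0.908, each with calls in both directions. The shares called over the list, 9.63% and 8.64%, lie beside the 7.22% and 8.71% of all regions. Under total-count scaling every fold in these paragraphs is lower by 0.50 on the log2 scale.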

How the data were processed

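ATAC-seq libraries of 1 stretched and 1 untreated mouse were grouped by their treatment label. Per the submitters' processing notes, the tools were MACS2 2.1.0.20151222, HTSeq, Picard, SAMtools and Bowtie2 2.2.6, and the build was GRCm38. The authors deposited raw counts per merged region for each library. The sources used here do not say how these were counted, whether duplicates were kept or how the Tn5 shift was handled. Per the file headers the authors called peaks separately in the 2 libraries. The deposited pileup is a signal in fragments. The deposited −log10 p and q and the deposited fold enrichment, a ratio, compare a summit with its local background. Per the file headers 31944854 control and 23876613 stretched fragments remained after filtering.

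TMM factors from edgeR 4.0.16 under R 4.3.3 scaled the counts. The fold has an exact Clopper-Pearson 95% interval, a count of 0 was set to 3, and no test was run at 1 library per group. The libraries have no molecular identifiers in the sources used here, and intervals reflect counting error alone. Scripts used Python 3.11.15, pandas 2.3.3 and scipy 1.17.1, and were tested on simulated counts. Gene spans came from RefSeq, whose table has no strand, and a gene-end region stands in for the promoter where no window was given. Promoter sequences cover only part of the genes. The members and gene lists were chosen with earlier results of these data known. Named regions were those called, the one with the most counts per gene and those at the promoters, and pathway genes named had at least 2 called regions. Alternatives were other scalings (totals, DESeq2 1.42.0 size factors, counts outside the large regions), trend removal and centring, and other count, fold, interval, distance and peak limits.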

Additional observations from a re-analysis of the deposited data

How the results depend on the processing

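No paired analysis was possible because each group holds 1 library, and for the same reason no library could be left out. The main limits are this single pair of mice and the scaling. Scaled by total counts, 2 regions were higher and 22 lower (1.68% and 23.2% of all regions) and the median log2 fold was -0.50. Scaled outside the large regions these were 4 and 6 (4.92% and 11.8%) and -0.14. Counts of higher and lower regions were 3 and 1 of 75 at 50 counts or more (6.33% and 6.05% of all such regions), 1 and 1 of 45 at 100 (6.16% and 2.87%) and 1 and 1 of 65 with a peak in both libraries (4.95% and 5.33%). Of the 111 they were 14 and 9 at 1.5-fold (14.6% and 13.7%) and 2 and 1 at 3-fold (1.92% and 3.05%). Higher and lower regions numbered 4 and 3 of 64 inside gene spans (7.22% and 8.71% of all regions, wherever they lie). With a 99% interval they numbered 4 and 2 of 111 (5.54% and 6.37%). Of the 51 values for counts of calls, peaks and the median, 33 stayed within their limits and 18 moved. Of 130 gene folds, 101 stayed within their limits, 20 moved, and 9 changed side of 1 where the interval as reported excluded 1: by total scaling Tgfb2 (0.799), Tgfbr1 (0.977), Tgfbr2 (0.827), Smad2 (0.964), Smad4 (0.956) and Smad7 (0.807), and centred on like regions Tgfb2 (0.935), Tgfbr1 (0.9996) and Tgfbr2 (0.929). Tgfb1 and Tgfb3, whose intervals as reported held 1, were under 1 in 4 and 5 of 13 alternatives, lowest at 0.723 and 0.728 by total scaling. The cause was not tested.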

Other observations

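At the 65 regions with a listed peak in both libraries, the authors' highest summit pileup was larger in the stretched library at 45 (69.2%) while the deposited count was larger at 29 (44.6%). Both pointed apart, with pileup higher and count lower, at 18 of the 65 (27.7%, against 16.8% of all such regions), and in the other way at 3 (4.62%, against 4.72%). Over all regions with peaks in both libraries the pileup was larger at 57.8% and the count at 45.7%. These are raw values of differently processed files and were not scaled. The Tgfb1 promoter is an example: its counts are 110 and 93, and its pileup 32 and 44 fragments.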
